A study of Arabidopsis thaliana with 24 samples.

Results

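Local far-red light on the leaf tip was compared with touch in the leaf tip of Arabidopsis thaliana, on 6 of the 24 arrays of the study. The 3 local far-red (FR) arrays and the 3 touch arrays were chosen by their titles alone. Touch serves here as the mechanical control of local lighting. In the local FR plants the leaf tip was lit at a ratio of red to far-red light (R:FR) of 0.05, while the background was 2.3. The touch plants stayed at an R:FR of 2.3, and the labels say nothing further of how they were touched. All plants were 28 d old, grew singly in pots and had 140 µmol per square metre and second of photosynthetic light. Harvest followed 5 h into the treatment and took 2 pieces of the fifth-youngest leaf, 2.5 mm from the end of the blade (leaf tip) and 1.5 mm from the foot of its stalk (petiole base). The other groups used below are the leaf tip of 3 whole FR replicates, whose whole rosette was under an R:FR of 0.05, and the leaf tip of 3 white-light controls. The petiole base of 3 local FR, 3 touch and 3 control replicates is used too, from the same leaves as the tips. The labels state independent biological replicates but do not say how many plants made up each one. They name no mutation or transgene and no accession of the plants.

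Plants read the R:FR through phytochromes, chiefly phytochrome B, active in red-rich light and is turned off by far-red light reflected from neighbouring leaves. Its loss of activity frees phytochrome-interacting factors (PIFs) to switch on genes, among them YUCCA genes, whose enzymes make auxin in the blade. Auxin in turn raises transcripts of Aux/IAA repressors and of GH3 enzymes, which dampen the hormone's signal and attach amino acids to it.

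Levels are log2 values after robust multi-array averaging (RMA), so a difference of 1 is a doubling, and levels of different genes cannot be set against each other. The number of arrays, 3 per group, limits the precision. Arrays within the local FR group correlated at 0.988 to 0.990 across probe sets and those within the touch group at 0.9888 to 0.9897, while local FR arrays correlated with touch arrays at 0.984 to 0.9871. On a scale that puts the control petiole base at 0 and the control leaf tip at 1, the local FR tips lay at 0.914 ± 0.025 and the touch tips at 0.945 ± 0.011 (SD, n = 3 arrays each). Local FR bases lay at -0.011 ± 0.06 and touch bases at 0.112 ± 0.002, the highest of the base groups. LHCB4.2, a light-harvesting protein gene of green leaf cells and the measured member of the 6 mesophyll markers, averaged 8.78 in local FR tips and 8.83 in touch tips. The stomatal genes FMA, MUTE and SPCH, listed as guard cell markers, differed by 0.01 to 0.04. Their group means ran from 1.19, below the 25th percentile of 1.27, to 5.77, so a low level could hide a difference. The 3 measured markers of the petiole base lay between 1.81 and 2.48 in both groups. None of these markers was called. The trichome gene TRY differed by -0.71 (adjusted p = 0.24), and the cell division genes AUR1 and HTR12 by 0.38 and -0.08.

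Local FR and touch tips differed in 242 of the 17504 probe sets that have a gene, which is 1.38% (limma, Benjamini-Hochberg adjusted p below 0.05, here "called"). Of these, 132 (0.754%) were higher under local FR than under touch and 110 (0.628%) were lower. The rises reached further than the falls: 19 of the 132 were at least 4-fold and 8 at least 8-fold, whereas 5 of the 110 falls were at least 4-fold and 0 were at least 8-fold. The median difference was 1.02 among the rises, -1.01 among the falls and 0.0 over all probe sets. In bulk tissue such a difference can be a change in RNA per cell or in the share of cells, and these cannot be told apart. The 3 arrays of each group did not overlap for 131 of the 132 and 109 of the 110, against 7.18% and 7.79% of all probe sets in those directions. The count of calls depended on single arrays: it was 140 without local FR replicate 2, 153 without local FR replicate 3, 154 without touch replicate 1 and 136 without touch replicate 2. It was 118 when only the 6 arrays were fitted. All 242 kept their direction in each of these fits. Of the called genes that the naming rule gave, FHL, EXPB3, CSLB03, NAI2, AT1G73325, AT4G15690 and AT1G06360 were not called in the fit of the 6 arrays.

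**Figure D1:**
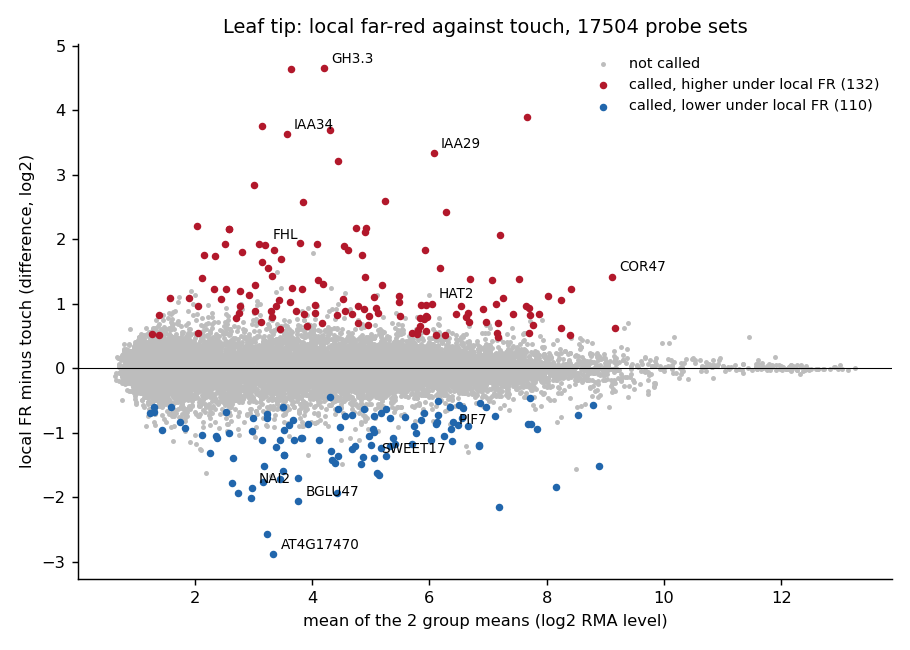
Each point is 1 of 17504 probe sets, with the mean of the local FR and touch group means in the leaf tip (log2 RMA level) on the horizontal axis and local FR minus touch (log2 difference) on the vertical axis. The 132 called rises in red extend to 4.65, while the 110 called falls in blue reach -2.89.

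The largest rise was that of GH3.3, which encodes an enzyme that joins auxin to amino acids. Its level was 6.27, 6.72 and 6.60 on the local FR arrays and 2.27, 1.94 and 1.41 on the touch arrays. Every local FR array thus lay more than 3 log2 units above every touch array, and the difference was 4.65 (SE 0.53, adjusted p = 1.52e-05). It was the called member among 6 measured GH3 genes, where 1.38% of all probe sets were called. The other 5 (GH3.1, GH3.4, GH3.9, GH3.17 and WES1) differed by -0.48 to 0.30 and were not called.

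The auxin-response repressor genes IAA34 and IAA29 rose as well. IAA34 stood at 5.09, 5.50 and 5.55 under local FR and at 1.96, 1.49 and 1.80 under touch, a difference of 3.63 (SE 0.18, adjusted p = 1.21e-11). IAA29 stood at 7.60, 8.0 and 7.62 under local FR and at 4.69, 3.73 and 4.82 under touch, a difference of 3.33 (SE 0.31, adjusted p = 8.41e-07). Neither gene's groups overlapped. Of the 8 measured Aux/IAA genes these 2 were called higher and 0 lower, where 1.38% of all probe sets were called. The other 6, IAA15, IAA18, IAA20, IAA30, IAA31 and IAA33, differed by -0.19 to 0.24 and had group means between 0.94 and 4.06.

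YUC2, which encodes a flavin monooxygenase of the last step of auxin synthesis, had levels of 4.12, 4.50 and 4.2 under local FR and 2.67, 2.65 and 2.0 under touch. The groups were well apart, and the difference was 1.83 (SE 0.23, adjusted p = 4.62e-05). In whole FR tips YUC2 averaged 4.21 ± 0.09 and in white-light control tips 3.28 ± 0.70 (SD, n = 3 each). The control mean therefore lay between touch and local FR, and the differences were 0.99 for local FR against control (adjusted p = 0.0215) and -0.84 for touch against control (adjusted p = 0.16). The other 3 YUCCA genes measured, YUC4, YUC6 and YUC11, differed by -0.15 to 0.10 and were not called, where 1.38% of all probe sets were called. None of the 3 measured genes of auxin transport and response (LBD16, LBD29 and WAG2) was called, with differences of 0.06 to 0.36 and group means of at most 1.28.

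Among the phytochrome and shade-response regulators 5 of 37 listed loci were measured, and 4 of these were called, 2 in each direction. Over all probe sets 1.38% were called, and the lists were chosen with earlier results of these data known. FHL carries phytochrome A into the nucleus, and its level was 3.69, 4.75 and 4.04 under local FR and 2.62, 2.68 and 1.44 under touch. All local FR arrays were higher, by 1.91 on average (SE 0.27, adjusted p = 0.000209), but the call was lost when only the 6 arrays were fitted, and the highest adjusted p over the alternatives was 0.0685. HAT2, a homeodomain-leucine zipper gene induced by auxin and shade, had 6.66, 6.66 and 6.29 under local FR and 5.75, 5.54 and 5.31 under touch. It was 1.0 higher (SE 0.19, adjusted p = 0.00467). Control tips averaged 5.96 ± 0.13 for HAT2 (SD, n = 3), between touch and local FR. Local FR against control was 0.58 (limma adjusted p = 0.141) and touch against control -0.42 (0.476), neither of them called.

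PIF7, a bHLH factor that phytochrome B holds back and that drives shade responses, went the other way. Its level was 5.87, 5.74 and 6.08 under local FR and 6.96, 6.82 and 6.75 under touch, so that every local FR array was lower. The difference was -0.95 (SE 0.16, adjusted p = 0.00125). The locus AT1G18810 of the same list also fell, with 6.05, 6.05 and 6.0 under local FR and 6.83, 6.98 and 6.96 under touch (difference -0.89, SE 0.15, adjusted p = 0.00166). Its control tips averaged 6.51 ± 0.13 (SD, n = 3), between the groups. Local FR against control was -0.48 (limma adjusted p = 0.125) and touch against control 0.41 (0.36), neither of them called. HYH differed by 0.15 and was not called.

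**Figure D2:**
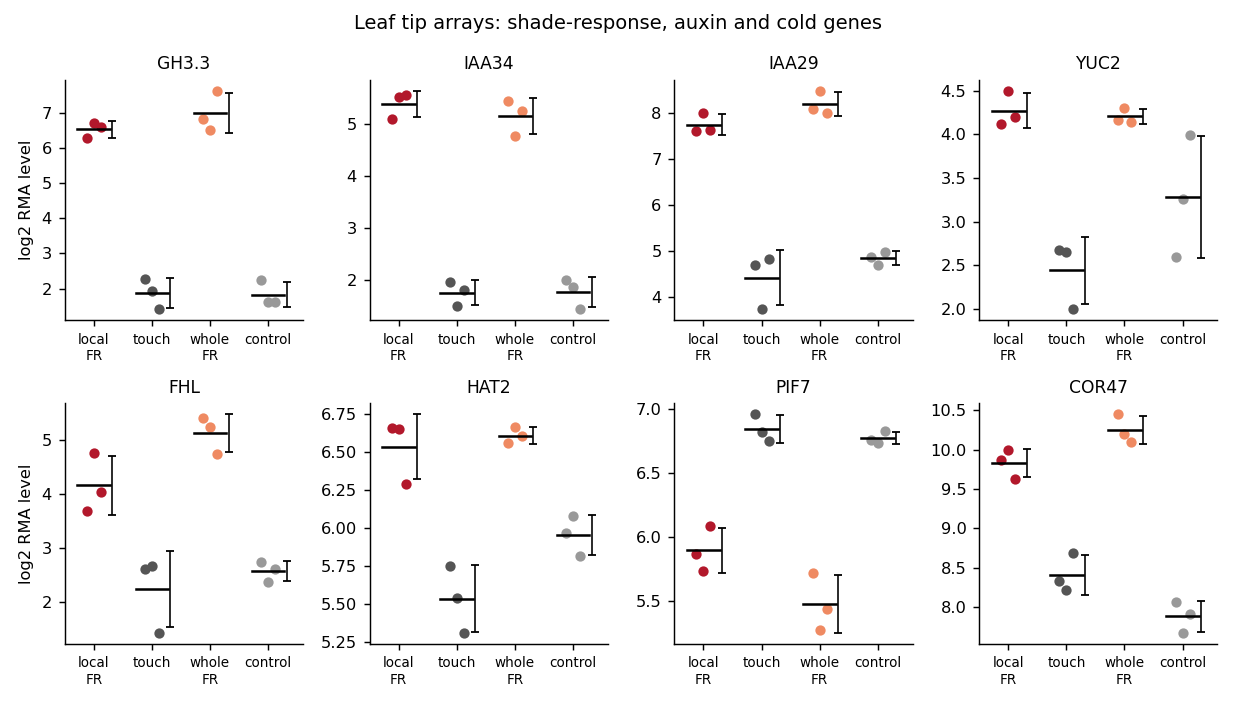
Points are the single leaf tip arrays (log2 RMA level) of local FR, touch, whole FR and control for 8 genes, bars are group means and whiskers show the SD (n = 3). Local FR lies with whole FR and apart from touch for GH3.3, IAA34 and IAA29, while PIF7 is lower under local FR than under touch and lower under whole FR than in controls.

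Of 16 measured expansin and xyloglucan endotransglucosylase genes, 2 were called higher and 0 lower, where 1.38% of all probe sets were called. XTH33 had 3.44, 3.4 and 3.56 under local FR and 2.78, 2.66 and 2.32 under touch (difference 0.88, SE 0.21, adjusted p = 0.0358). EXPB3, a beta-expansin, had 6.09, 6.63 and 6.35 under local FR and 5.81, 5.06 and 5.76 under touch (difference 0.81, SE 0.20, adjusted p = 0.0387). Both calls were close to the threshold: that of XTH33 was lost without any 1 of the 6 arrays (adjusted p up to 0.161), and that of EXPB3 without local FR replicate 2 or 3 or touch replicate 2 (up to 0.256). The other 14 differed by -0.26 to 0.74.

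COR47, a dehydrin of cold and abscisic acid responses, was the called member of 5 measured genes in its list, where 1.38% of all probe sets were called. Its level was 9.87, 9.99 and 9.63 under local FR and 8.32, 8.21 and 8.69 under touch, a difference of 1.42 (SE 0.15, adjusted p = 7.35e-06). COR15A, COR15B, KIN1 and KIN2 had differences of 0.33 to 0.70, none of them called. The trichome gene TRY differed by -0.71 (adjusted p = 0.24), and the cell division genes AUR1 and HTR12 by 0.38 and -0.08. CSLB03, a cellulose synthase-like gene, fell: it stood at 1.59, 1.83 and 1.84 under local FR and at 3.45, 2.79 and 4.36 under touch (difference -1.78, SE 0.29, adjusted p = 0.00113), and its call was lost when only the 6 arrays were fitted (highest adjusted p over the alternatives 0.0788).

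Outside the lists described so far and the run of 5 loci on chromosome 4 given below, which was a list of its own, no pathway list held a called member. The 5 measured touch and early stress genes (STZ, CML23, CML37, CML38 and AT1G76640) differed by -0.18 to 0.37, with group means of 0.83 to 3.47. None of the 3 gibberellin receptor genes (GID1A, GID1B and GID1C) was called (-0.07 to 0.37), nor were 6 genes of chlorophyll synthesis and light harvesting (-0.13 to 0.43), 5 of the flavonoid and anthocyanin pathway (-0.30 to 0.40), or the cytokinin response regulators ARR15 and RR16 (-0.89 and -0.83, lowest adjusted p 0.116). The single measured members of the ethylene, jasmonate, clock and SAUR lists, EIN3, OPCL1, GI and AT2G18010, differed by 0.23, -0.16, 0.13 and 0.56 and were not called either. The lists do not cover these pathways in full: JMT, which makes methyl jasmonate, and CHIL of the flavonoid pathway stand outside them. Both were called and are given below. The sucrose transporter gene SWEET11, the measured member of both the sugar-starvation list and the phloem markers, differed by -0.42 (adjusted p = 0.43). In all, 78 of 414 listed loci were measured under a name, and the lists for brassinosteroid and heat shock had no measured member.

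The rest of the 12 largest rises were loci for which the annotation gives no name, apart from FLP1. AT5G02540 averaged 9.62 ± 0.42 under local FR and 5.72 ± 0.07 under touch (SD, n = 3 each), a difference of 3.9 (SE 0.22, adjusted p = 1.37e-10). AT3G21330 had 4.46, 5.38 and 5.22 under local FR and 1.17, 1.22 and 1.41 under touch, a difference of 3.75 (SE 0.22, adjusted p = 1.45e-10). Its touch mean of 1.27 is at the 25th percentile of all touch levels, so the difference may understate the change. AT2G47780 had 5.93, 6.36 and 6.15 under local FR and 2.71, 2.35 and 2.32 under touch, a difference of 3.69 (SE 0.21, adjusted p = 1.37e-10). AT5G62210, AT2G28400, AT1G80130, AT1G01390 and AT1G70640 rose by 3.21, 2.84, 2.59, 2.57 and 2.42. FLP1 had 2.70, 3.74 and 2.96 under local FR and 1.01, 0.93 and 0.87 under touch (difference 2.2, SE 0.21, adjusted p = 1.22e-06). Its touch mean of 0.94 lay below the 5th percentile of touch levels, 0.98, so this difference too may understate the change. All 12 kept their call without any 1 of the 6 arrays.

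The largest fall was that of AT4G17470, with 2.23, 1.31 and 2.13 under local FR and 4.95, 5.26 and 4.15 under touch (difference -2.89, SE 0.35, adjusted p = 3.45e-05). AT5G17700 followed with 2.06, 1.80 and 1.98 under local FR and 4.44, 4.31 and 4.78 under touch (difference -2.57, SE 0.26, adjusted p = 2.86e-06). For both loci every local FR array lay well below every touch array. BGLU47, a beta-glucosidase gene, had 3.4, 2.68 and 2.11 under local FR and 4.67, 5.19 and 4.53 under touch (difference -2.06, SE 0.26, adjusted p = 6.06e-05). NAI2, a component of the endoplasmic reticulum bodies of the mustard family, had 2.79, 1.76 and 1.58 under local FR and 4.47, 4.27 and 2.98 under touch (difference -1.86, SE 0.36, adjusted p = 0.00728). Its call was lost without local FR replicate 2 or 3 or touch replicate 1 or 2 (adjusted p up to 0.064). NAI2 and BGLU47 stood at 8.70 and 8.19 in touch petiole bases. PYK10, the glucosidase of the same bodies and a marker of the petiole base, was not called in the tip, and the part of base tissue in these 2 falls was not tested.

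The other falls among the 12 largest were those of AT1G66100 (-2.15), AT1G73325 (-2.02), AT3G15720 (-1.94), AT2G12190 (-1.93), AT1G31690 (-1.85), CSLB03, AT3G46880 (-1.76) and AT1G13650 (-1.72). Of these calls, 3 rested on single arrays. AT1G73325 was not called without local FR replicate 2 or 3 or touch replicate 1 or 2 (adjusted p up to 0.0826). AT3G46880 was not called without local FR replicate 1 or 3 or touch replicate 1 or 2 (up to 0.114). AT1G31690 was not called without local FR replicate 2 or touch replicate 1 (up to 0.0776).

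A run of 5 consecutive loci on chromosome 4, AT4G15660 to AT4G15700, fell together, by -1.01 (AT4G15660), -1.48 (AT4G15670), -1.37 (AT4G15680), -1.38 (AT4G15690) and -1.18 (AT4G15700). The annotation gives them no name. AT4G15670 had the lowest adjusted p, 0.0023, with 4.08, 4.15 and 4.06 under local FR and 5.73, 5.74 and 5.25 under touch. Here the control tips lay nearer to local FR than to touch: AT4G15670 averaged 4.1 ± 0.05 in local FR tips, 5.57 ± 0.28 in touch tips and 3.46 ± 0.61 in control tips (SD, n = 3 each). Touch against control was 0.93 for AT4G15660 (adjusted p = 0.117) and 1.69 to 2.11 for the other 4 loci (adjusted p 0.000798 to 0.00789). Local FR against control was -0.08 to 0.69 and not called for any of the 5. Both of these contrasts share arrays with local FR against touch, so the levels are given side by side. Under whole FR, AT4G15660, AT4G15670, AT4G15680 and AT4G15690 were called lower than in control tips. They differed by -1.09, -1.25, -2.09 and -1.02 (limma adjusted p 6.85e-06 to 0.0236). AT4G15700 differed by -0.38 there and was not called (adjusted p = 0.509). The 5 loci correlated with each other at 0.796 to 0.956 across the 12 leaf tip arrays, and whether their probes share sequence was not tested. The calls of AT4G15660 and AT4G15700 were the weakest: AT4G15660 was lost without any 1 of the 6 arrays (adjusted p up to 0.162), AT4G15700 without any 1 except touch replicate 3 (up to 0.153), and AT4G15690 without touch replicate 2 (0.0863).

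**Figure D3:**
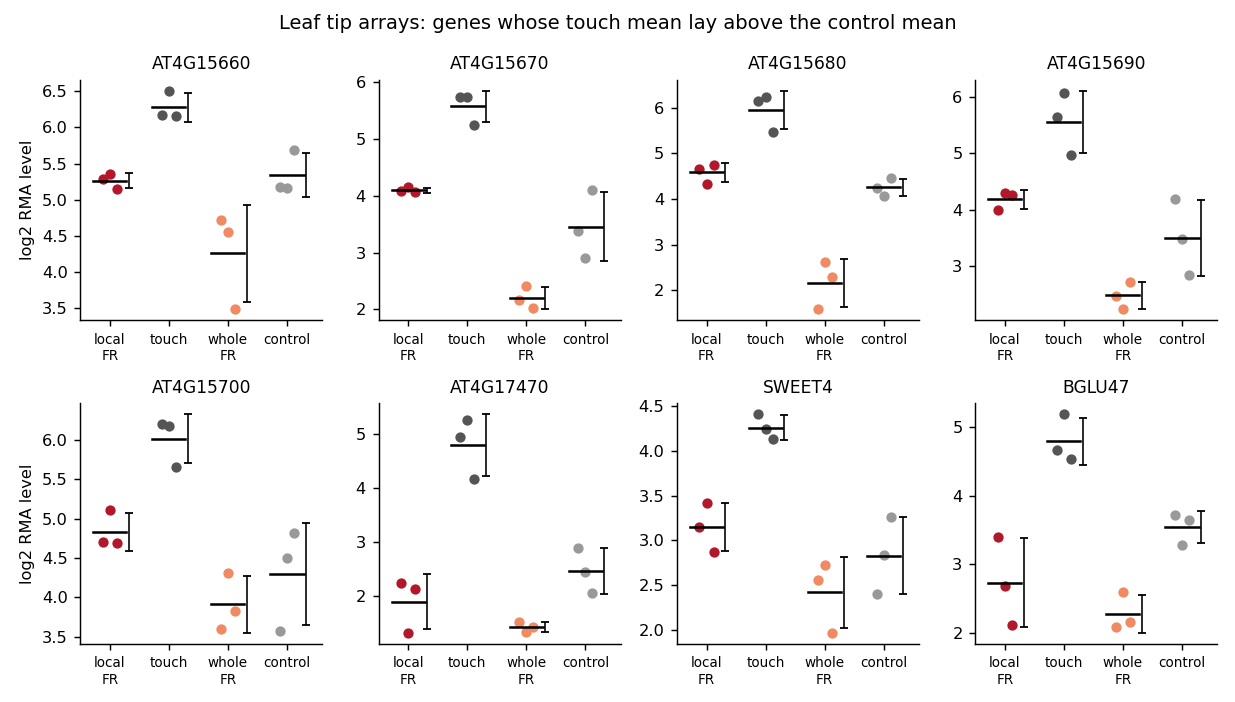
Points are the single leaf tip arrays (log2 RMA level) of local FR, touch, whole FR and control for 8 loci called lower under local FR than under touch, bars are group means and whiskers show the SD (n = 3). In each panel the touch mean is the highest of the 4, and AT4G15670 has 5.57 under touch against 3.46 in control tips.

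The position of the control tips differed between rises and falls. Placed on a scale from the touch mean (0) to the local FR mean (1), the control mean had a median position of 0.0 over the 132 rises, and it was nearer to touch for 123 of them. Over the 110 falls the median position was 0.34, with the control nearer to touch for 69 and nearer to local FR for 41. The local FR minus touch differences do not use the control arrays, but the calls rest on a spread estimated from all 24 arrays. No test was made of these positions. AT4G17470 averaged 1.89 ± 0.50 in local FR tips, 4.79 ± 0.57 in touch tips and 2.46 ± 0.42 in control tips, and touch against control was 2.33 (adjusted p = 0.00459). Touch against control was 1.25 for BGLU47 (adjusted p = 0.0472) and 2.03 for AT1G73325 (adjusted p = 0.0357). PIF7 was unlike these: it averaged 5.89 ± 0.18 in local FR tips, 6.84 ± 0.11 in touch tips and 6.78 ± 0.05 in control tips (SD, n = 3 each). Over all probe sets 43 (0.246%) were called between touch and control in the tip, and 359 (2.05%) between local FR and control.

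Whole FR against control was measured in the same tissue on 6 arrays that local FR against touch does not use, and 1384 probe sets (7.91%) were called. Of the 132 rises, 105 (79.5%) were called higher there and 0 lower, where 4.01% of all probe sets were called higher and 3.9% lower. Of the 110 falls, 61 (55.5%) were called lower and 0 higher. The median of whole FR minus control was 1.28 over the rises, -0.74 over the falls and -0.008 over all probe sets. GH3.3 rose by 5.17 under whole FR (adjusted p = 9.55e-07), IAA29 by 3.34 (adjusted p = 2.13e-07), IAA34 by 3.38 (adjusted p = 2.21e-11) and AT2G47780 by 5.39 (adjusted p = 9.01e-14). YUC2 rose by 0.92 (adjusted p = 0.0128), HAT2 by 0.66 (adjusted p = 0.0315) and FHL by 2.54 (adjusted p = 1.26e-06). PIF7 fell by 1.3 (adjusted p = 6.72e-06).

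Not all members had a whole FR difference of that kind. EXPB3 differed by 0.06 (adjusted p = 0.909), NAI2 by -0.66 (adjusted p = 0.331), AT2G12190 by -0.24 (adjusted p = 0.77), AT3G46880 by -0.71 (adjusted p = 0.331), AT1G73325 by -0.28 (adjusted p = 0.779) and AT4G17470 by -1.04 (adjusted p = 0.08). AT1G31690 had the widest gap the other way: it averaged 7.22 ± 0.39 in local FR tips and 9.07 ± 0.27 in touch tips, against 3.69 ± 0.88 in whole FR tips and 8.64 ± 0.06 in control tips (SD, n = 3 each), which makes a difference of -4.95 under whole FR (adjusted p = 1.48e-08). Whether the 2 differences of a gene were unequal was not tested.

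**Figure D4:**
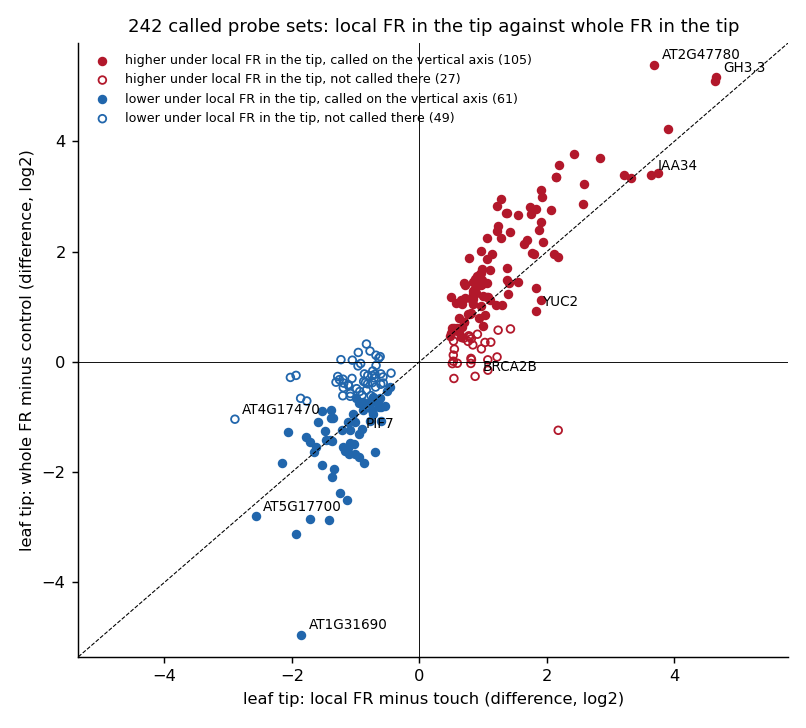
Each point is 1 of the 242 called probe sets, with local FR minus touch in the leaf tip on the horizontal axis and whole FR minus control in the leaf tip, from other arrays, on the vertical axis (both log2 differences; dashed line, equal differences). Filled points were called in whole FR against control, 105 of the 132 rises in red and 61 of the 110 falls in blue.

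In the petiole base, which was not the part lit with far-red, the same comparison was made on other arrays of the same leaves. Over all probe sets 667 (3.81%) were called there, 259 (1.48%) higher and 408 (2.33%) lower under local FR. Of the 132 rises of the tip, 13 (9.85%) were called higher in the base and 11 (8.33%) lower. Of the 110 falls, 23 (20.9%) were called lower in the base and 3 (2.73%) higher. The median base difference was 0.07 over the rises, -0.22 over the falls and 0.007 over all probe sets. On the scale from base to tip, touch bases (0.112 ± 0.002) lay nearer to the tip than local FR bases (-0.011 ± 0.06). The part of tissue make-up in the base and tip minus base differences was not tested.

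IAA29, HAT2 and XTH33 were higher under local FR than under touch at both ends of the leaf. IAA29 averaged 2.91 ± 0.82 in local FR bases and 1.42 ± 0.20 in touch bases (difference 1.49, adjusted p = 0.00721). HAT2 averaged 6.09 ± 0.26 in local FR bases and 4.45 ± 0.41 in touch bases (difference 1.64, adjusted p = 2.07e-05). GH3.3 averaged 3.25 ± 0.81 in local FR bases and 1.86 ± 0.43 in touch bases, which was not called (difference 1.38, adjusted p = 0.184). Control bases averaged 3.31 ± 1.68 for GH3.3, near the local FR mean, and 5.10 ± 0.07 for HAT2, between touch and local FR. They averaged 1.24 ± 0.05 for IAA29 and 3.03 ± 0.47 for XTH33, near the touch means. XTH33 rose by 0.93 in the base (adjusted p = 0.0129). IAA34, YUC2 and PIF7 differed by 0.19, -0.19 and 0.02 in the base, with adjusted p of 0.745, 0.833 and 0.985. All group values in the base are means ± SD of 3 arrays.

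The difference between the tissues was tested as local FR minus touch in the tip minus the same in the base, and 262 of all probe sets (1.50%) were called, 137 (0.783%) above 0 and 125 (0.714%) below 0. Tip and base pieces came from the same leaves, but the model treated their arrays as independent. Whether tip and base arrays of the same leaves vary together was not tested. The 5 largest above 0 among named genes were AT5G02540 (3.64), AT3G21330 (3.57), IAA34 (3.44), GH3.3 (3.27) and AT2G47780 (3.13), with adjusted p of 3.5e-08 for IAA34 to 0.0269 for GH3.3. For IAA29 it was 1.84 (adjusted p = 0.0331), for YUC2 2.02 (adjusted p = 0.00128) and for PIF7 -0.97 (adjusted p = 0.0238). FHL, HAT2 and XTH33 were not called (1.27, -0.64 and -0.05; adjusted p 0.114, 0.326 and 0.981).

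The 5 largest below 0 were AT1G06360 (-4.31), AT5G45670 (-3.05), AT1G52750 (-2.85), AT2G30930 (-2.78) and AT1G44830 (-2.62), with adjusted p of 3.85e-08 for AT2G30930 to 0.00037 for AT1G44830. AT1G06360 averaged 2.91 ± 0.68 in local FR tips and 4.62 ± 0.27 in touch tips, but 6.86 ± 0.36 in local FR bases and 4.26 ± 0.30 in touch bases (SD, n = 3 each), so it fell in the tip and rose in the base. Its tip call was lost without local FR replicate 1 (adjusted p = 0.054). AT2G30930 was called in opposite directions too, by -1.62 in the tip (adjusted p = 5.31e-07) and by 1.16 in the base (adjusted p = 5.73e-05). The other 3 were higher under local FR than under touch in the base, by 2.30 to 2.64, and were not called in the tip. AT5G45670 averaged 9.15 in local FR bases, 6.73 in touch bases and 7.86 in control bases. In the same order AT1G52750 averaged 7.88, 5.25 and 6.46, and AT1G44830 averaged 4.22, 1.93 and 2.01. EXPB3 had the reverse pattern, 0.81 in the tip and -0.86 in the base (adjusted p = 0.0142).

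**Figure D5:**
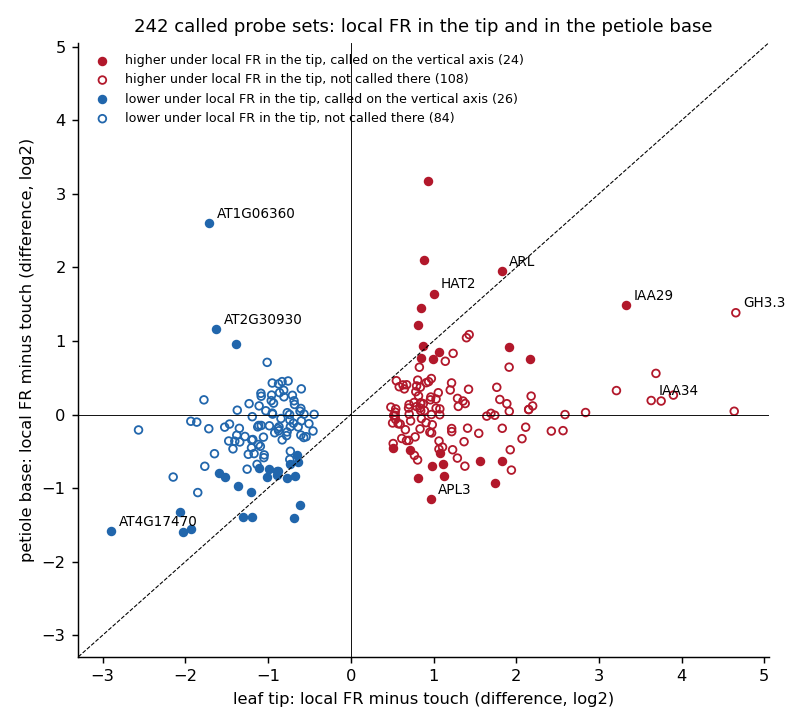
Each point is 1 of the 242 probe sets called in the leaf tip, with local FR minus touch in the leaf tip on the horizontal axis and in the petiole base on the vertical axis (both log2 differences; dashed line, equal differences). Filled points were called in the base, in either direction. The rises of the tip have a median of 0.07 in the base, and AT1G06360 is the fall of the tip that lies highest there, at 2.60.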

How the data were processed

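The authors deposited log2 values from robust multi-array averaging (Expression Console, core-gene analysis), per the labels. RMA equalises the signal distributions of arrays, so a shift shared by all genes is removed. Software version, annotation release and genome build are not given in the sources used here, so no coordinates are printed. The file held 38408 probe sets: 16746 with 1 gene, 758 with several, which are counted but not named, and 20904 not listed. Of the single-gene probe sets 16601 were found in the reference gene table, 1777 with a symbol of their own. Sequences of promoters and proteins were not used here.

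The linear model of limma 3.58.1 under R 4.3.3 held a mean for every one of the 8 groups of all 24 arrays, 16 residual degrees of freedom and eBayes without trend. Tests were two-sided and adjusted by Benjamini-Hochberg over the 17504 probe sets with a gene. SE is the moderated standard error, and SD is over 3 arrays. The procedure was tested on simulated data first. The labels state independent biological replicates, with array numbers whose meaning they do not give.

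The text names the 12 largest called rises and falls with groups that do not overlap, up to 5 called members of each of 20 pathway lists, the 5 largest tip minus base differences each way, and IAA29, GH3.3, IAA34, YUC2, PIF7 and FHL. The members and lists were chosen with earlier results of these data known. Alternatives were the groups compared or 1 tissue alone, the replicate number as a block, cyclic loess on top of RMA, the dimmest 30% left out, a variance trend with robust estimation, testing every probe set of the file, and leaving out each array.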

Additional observations from a re-analysis of the deposited data

Results flagged for a closer look

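For 32 of the 70 genes named here the local FR minus touch difference in the leaf tip departed from that in the petiole base by the test of the difference itself (limma, adjusted p below 0.05); 19 of these tip minus base differences lay above 0 and 13 below 0. The genes were named for a called difference in the tip or for the size of this very difference, so the share says nothing beyond that choice; over all probe sets 262 (1.50%) were called. The loci with no name above 0 were AT5G02540 (3.64), AT3G21330 (3.57), AT2G47780 (3.13), AT5G62210 (2.89), AT2G28400 (2.81), AT1G01390 (2.79), AT1G70640 (2.65) and AT1G80130 (2.59). Above 0 among auxin genes were IAA34 (3.44), GH3.3 (3.27), YUC2 (2.02) and IAA29 (1.84). The other named genes above 0 were CHIL (2.70), APL3 (2.12), FLP1 (2.08), CYP71B26 (1.69), EXPB3 (1.67), BRH1 (1.23) and COR47 (1.08).

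The tip minus base differences below 0 were those of AT1G06360 (-4.31), AT5G45670 (-3.05), AT1G52750 (-2.85), AT2G30930 (-2.78), AT1G44830 (-2.62), AT5G17700 (-2.36), CSLB03 (-1.97), AT1G13650 (-1.52), UGT85A5 (-1.33), GSTU28 (-1.09), PIF7 (-0.97), UGT85A2 (-0.96) and SFP2 (-0.95). The departures of AT5G45670, AT1G52750 and AT1G44830 came with called rises in the base and no call in the tip.

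Of the 20904 probe sets that the annotation does not list, 227 were called in local FR against touch in the leaf tip when all probe sets of the file were fitted, 123 higher and 104 lower. They are unnamed here and stand in no comparison above.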

How the results depend on the processing

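The 242 calls of local FR against touch in the tip became 118 with only the groups compared, 156 with leaf tip arrays only, 85 with the replicate number as a block and 418 with all probe sets of the file, and 136 to 222 without 1 array. All 242 kept their sign in every alternative that held them; 106 remained called with the groups compared, 139 with tip arrays, 77 under the block, 235 after cyclic loess, 228 with the variance trend, and 126 to 178 without 1 array. The tip minus base difference had 262 calls, 276 under the block, 444 with all probe sets and 169 to 291 without 1 array. The petiole base had 667 calls, 400 with the groups compared, 228 under the block, 1058 with all probe sets and 321 to 748 without 1 array. Whole FR against control had 1384 calls, 696 with the groups compared, 477 under the block, 2900 with all probe sets and 975 to 1181 without 1 array. Same-numbered local FR and touch tip arrays correlated at 0.028, 0.066 and 0.053 in their deviations from the group means, none above 0.1, so the number was not used as pairing, although each local FR array correlated best with the touch array of its own number; PIF7, AT1G18810, AT4G15680, SFP1 and SFP2 missed the threshold under the block alone (adjusted p = 0.0757, 0.0648, 0.0975, 0.0708 and 0.0577). Over 70 named genes and 13 alternatives, 738 of 910 results kept direction and side of the threshold, 171 (33 genes) fell short of it and 1 reversed: AT1G52750, not called, ranged from -0.41 without touch replicate 1 to 0.0078 without touch replicate 2. The cause was not tested. Of the 39 called genes named by the rule 29 kept the call without any 1 array. Levels near the 25th percentile of 1.27 limit what a difference can show; 5 rises and 4 falls had their lower group mean below it.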

Other observations

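A symbol of their own was held by 28 further called genes outside the rule for named genes, 12 higher and 16 lower under local FR; they were chosen after their values were seen. The call held without any 1 of the 6 arrays for 13 of the 28. Among the rises, CHIL, a chalcone isomerase-like gene of the flavonoid pathway, had 4.37, 5.17 and 4.74 under local FR and 2.41, 3.28 and 2.77 under touch, with no overlap (difference 1.94, limma adjusted p = 0.000967). ARL, an organ growth gene of the ARGOS family, was higher by 1.83 in the tip and by 1.95 in the base, and in the tip it averaged 5.52 ± 0.27 under local FR, 3.70 ± 0.42 under touch and 4.96 ± 0.53 in controls (SD, n = 3 each), with touch against control at -1.26 (adjusted p = 0.0425). BRH1, a RING finger gene that responds to brassinosteroid, rose by 1.38, LCR69, of the defensin-like low-molecular-weight cysteine-rich family, by 1.06, and the cytochrome P450 gene CYP71B26 by 0.98.

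Among the falls were those of 3 SWEET and 2 SFP genes. SWEET17, a fructose transporter of the vacuole membrane, had 4.56, 4.22 and 4.3 under local FR and 5.86, 5.99 and 5.43 under touch (difference -1.40, adjusted p = 0.000766). SWEET16, its vacuolar relative, fell by 1.35 (adjusted p = 0.00253) and SWEET4 by 1.11 (adjusted p = 0.00276). These 3 were the called members of 14 measured SWEET genes, whose median difference was -0.01, where 1.38% of all probe sets were called. The control levels of the 3 differed: SWEET4 averaged 3.15 ± 0.27 under local FR, 4.26 ± 0.14 under touch and 2.83 ± 0.43 in controls (SD, n = 3 each). In the same order SWEET17 averaged 4.36 ± 0.17, 5.76 ± 0.29 and 4.96 ± 0.62, and SWEET16 averaged 2.86 ± 0.13, 4.21 ± 0.20 and 4.01 ± 0.37. The sugar porter genes SFP1 and SFP2, which are neighbours in the genome, fell by 1.19 and 0.94 (adjusted p = 0.00259 and 0.00131). JMT, which makes methyl jasmonate, had 2.97, 2.30 and 2.01 under local FR and 3.23, 4.32 and 4.29 under touch (difference -1.52, adjusted p = 0.00521), and its call was lost with only the 6 arrays or only the leaf tip arrays in the fit (adjusted p up to 0.248 over the alternatives). UGT85A2 fell by 1.12 and DJ1F by 1.21.

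The call was lost without at least 1 of the 6 arrays for the other 15 of the 28 (TRM25, APL3, FMO, BRCA2B, AGL24, scpl25, SAT32, ATMAP65-6, TAAC, MSRB6, GSTU27, GSTU28, CLE41, UGT85A5 and HOS3-1), whose differences lay between 0.54 and 1.24 above 0 and between -1.09 and -0.57 below 0. APL3, a subunit of the starch synthesis enzyme ADP-glucose pyrophosphorylase, differed by 0.96 in the tip and by -1.15 in the base (adjusted p = 0.00233).

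Among 10416 pairs of neighbouring loci that were both measured under a name, both members were called in 10, and in all 10 they moved the same way. Of the 16506 loci placed in the genome, 231 were called, and the number of pairs was not tested against that share. Of these, 4 pairs lie in the run from AT4G15660 to AT4G15700, and the others include IAA34 with AT1G15060 (3.63 and 0.80), UGT85A2 with UGT85A5 and SFP1 with SFP2. Whether probes of such neighbours share sequence was not tested.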
